A study of Mus musculus with 6 samples.

Results

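The 10 SR protein genes measured here were Srsf1, Srsf2, Srsf3, Srsf4, Srsf5, Srsf6, Srsf7, Srsf9, Srsf10 and Srsf11, taken by gene symbol from the 55421 genes of the expression table. Each of them had a lower mean mRNA level in hnRNPL-deficient than in WT activated B cells, by 9.66% for Srsf11 up to 32.6% for Srsf2. At an adjusted p under 0.1 in the limma fit, 4 of the 10 fell (Srsf2, Srsf3, Srsf7 and Srsf10), beside 7.97% of all genes tested and 15.1% of those at least as abundant, and none of the 10 reached the 1.5-fold change that the study also asked for. Splenic B cells were cultured with LPS at 5 μg/ml plus IL-4, itself at 5 ng/ml, which together drive resting B cells into division, and RNA was taken at 24 h. The WT group carried CD21-cre alone and the hnRNPL-deficient group was hnRNPL F/F CD21-cre, so that both groups carried the recombinase, with 3 libraries in each.

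CD21-cre is active mainly in mature B cells, and per the study's methods all mice also carried the Rosa mT/mG reporter, which switches to GFP after recombination, on a C57BL6/J background. The cells sequenced were the sorted GFP+ cells of each culture, of mice older than 6 weeks. The study gives the libraries as those of separate mice, although the sample labels name no animals. Hnrnpl mRNA was 24371, 25579.7 and 24174 normalized counts in WT libraries 1 to 3 and 2178, 1519 and 1297 in the hnRNPL-deficient ones, 6.74% of WT. Gene reads ran from 40395186 to 75180749 per library. The 7 B cell markers were above 0 in all 6 libraries, with a summed level of 4656 to 5718 CPM (gene reads scaled to the same total in each library) in the WT libraries and 4677 to 5818 in the others. The 8 T cell markers (16.9 to 20.6 against 13.9 to 19.9 CPM) and the 5 plasma cell markers (569.5 to 636 against 579 to 615) overlapped between the groups. The sums of 3 other lists were low but separated the groups. The 7 myeloid markers summed to 9.71 to 12.9 CPM in WT and 28.1 to 32.6 in hnRNPL-deficient cells, of which Adgre1, a macrophage surface receptor, made up 3.78 to 5.48 and 20.6 to 24.7, with S100a8 and S100a9 at 0 in every library and Lyz2 at 0 in all but 1. The 5 NK cell markers summed to 0.492 to 0.541 against 0.799 to 1.27 (Prf1 above 0 in every library, Ncr1 at 0), and the 6 erythroid markers to 0.306 to 0.615 against 0.930 to 1.46. The part of these cells in the values below was not tested.

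SR proteins are splicing factors that join RNA recognition motifs to a tail rich in arginine and serine. They bind exonic enhancer sequences and recruit the spliceosome to nearby splice sites, and kinases of the SRPK and CLK families set their location and activity by phosphorylating the tail. Many SR genes hold down their own expression by splicing in a poison exon, an exon with an early stop codon that sends the mRNA to nonsense-mediated decay (NMD). hnRNPL, a member of another family of RNA-binding proteins, binds CA-rich RNA and represses or enhances exons.

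The poison-exon arrangement was visible in the annotation of these genes (GENCODE vM21, GRCm38). Of the 85 annotated transcripts of the 10 genes, 56 were not protein coding, 15 in 9 genes were NMD targets and 26 in 8 genes retained an intron. Srsf10 had no NMD transcript. In Srsf3, Srsf4, Srsf7, Srsf9 and Srsf11, an NMD stop lay in an exon outside all protein-coding sequence. The stretches that end at the stops of NMD transcripts are shown for the genes on which the results turn. They are shown because the read count of a gene with NMD transcripts is a sum over these and its productive transcripts. In Srsf2 the exon with the stop, which lies 7 bases before the exon's end, is also part of a protein-coding transcript. The Srsf2 stop is therefore not shown to be an early one. They are written 5′ to 3′ on the strand of the gene, with the stop codon in capitals.
Srsf2 (chr11:116852028-116852057, minus strand): ccagaagaagagggagcagtttcttccTAA
Srsf3 (chr17:29039458-29039487, plus strand): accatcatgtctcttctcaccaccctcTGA
Srsf7 (chr17:80205054-80205081, minus strand): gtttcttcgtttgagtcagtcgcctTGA
Srsf1 (chr11:88049986-88050015, plus strand): aagagatggattaagaatgctttggatTAA
Srsf11 (chr3:158024209-158024231, minus strand): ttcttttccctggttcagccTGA
The poison exon was 456 bases long in Srsf3 and 460 bases in Srsf7. Inclusion of these exons was not measured in the gene-level table. From these counts alone, a lower count cannot be told apart from a shift between transcripts that are kept and transcripts that decay. The study analysed splicing in the same cells with the program rMATS, and its events were not used here.

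Values are normalized counts, which are gene read counts divided by a size factor for each library, and libraries are given in the order 1, 2 and 3. Among 17640 genes whose mean over the 6 libraries was 10 or more, 4.08% were called lower and 7.28% higher in hnRNPL-deficient cells at an adjusted p under 0.1 and 1.5-fold, and no SR gene was called in either direction. The count of 4 SR genes that fell without the fold threshold was 1 without WT library 2, 2 when WT library 1 was left out or when library 2 or 3 of the hnRNPL-deficient group was, and 3 without either of the other two. The share of all genes tested that fell by this rule also dropped, from 7.97% to 3.79% without WT library 2 or 3. It was 5.54% to 5.99% when any other library was left out. All 10 log2 fold changes were below 0, as were 52.7% of those of all genes tested, and their median was -0.34 (range -0.58 to -0.15) beside -0.03 over all genes.

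SR mRNAs are abundant, and abundant genes tended to be lower in the hnRNPL-deficient libraries. Among the 3292 genes with a mean at least that of Srsf4, the least abundant SR gene, 68.2% were lower, 3.86% were called lower, and the median log2 fold change was -0.11. The share of all gene reads that came from the 10 SR genes was 0.268%, 0.266% and 0.248% in the WT libraries against 0.217%, 0.207% and 0.197% in the others, with no overlap between the groups. As the samples are bulk RNA, fewer cells of a kind and less of an mRNA per cell cannot be told apart.

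**Figure D1:**
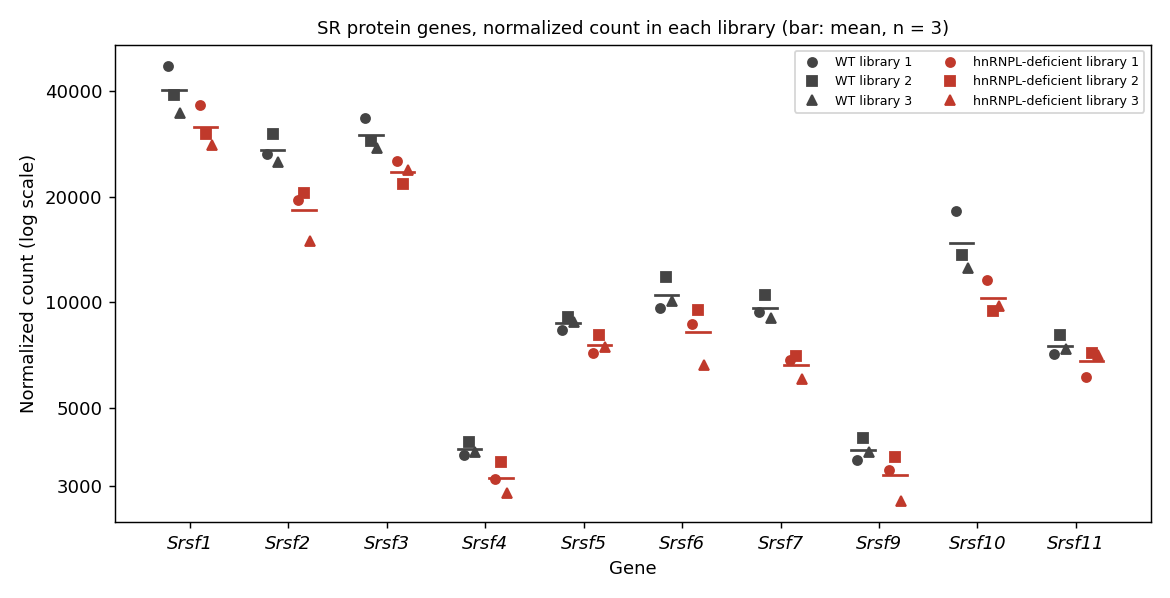
Normalized count of each SR protein gene (log scale) in the 3 WT (grey) and 3 hnRNPL-deficient (red) libraries, with a symbol for each library number and a bar at the group mean. The groups do not overlap for Srsf2, Srsf3, Srsf4, Srsf5, Srsf6, Srsf7 and Srsf10, and they overlap for Srsf1, Srsf9 and Srsf11.

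The SR proteins fall into those with 1 RNA recognition motif (Srsf2, Srsf3, Srsf7, Srsf10 and Srsf11) and those with a pair of them (Srsf1, Srsf4, Srsf5, Srsf6 and Srsf9). The 4 genes that fell were all of the first kind. This grouping was made after the values were seen and carries no test. Srsf2 encodes an SR protein that stays in the nucleus and promotes exon definition. Its mRNA was at 26492, 30078 and 25106 normalized counts in the WT libraries against 19548, 20522 and 14979.8 in the hnRNPL-deficient ones. The lowest WT library lay above the highest hnRNPL-deficient one, and hnRNPL-deficient library 3 was the lowest of all. The means were 27226 ± 2566 and 18350 ± 2959 (SD, n = 3), a log2 fold change of -0.58 (SE 0.14, 95% interval -0.89 to -0.26, limma adjusted p = 0.0325), just short of the 1.5-fold threshold of 0.585 on the log2 scale. It passed both thresholds when library 1 or 3 of the WT group, or library 1 or 2 of the hnRNPL-deficient group, was left out (-0.60 to -0.67), and it missed the p threshold without WT library 2 (limma adjusted p = 0.114).

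Srsf2 shares exon sequence on the opposite strand with Mettl23 and Mfsd11. The reads were counted by strand. Mettl23 was at 1712 ± 157 and 1183 ± 126 normalized counts in the WT and hnRNPL-deficient groups (log2 fold change -0.53, limma adjusted p = 0.0306). Mfsd11 was at 684 ± 116 and 454 ± 42.6 (-0.58, limma adjusted p = 0.0548). The opposite-strand neighbours of Srsf1 (Gm11508, 176 ± 11.3 and 122 ± 14.2) and of Srsf4 (Gm12992, 318 ± 33.6 and 241 ± 49.0) were also lower on average but did not pass (limma adjusted p = 0.117 and 0.212).

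Srsf7 encodes an SR protein that also carries a zinc knuckle and, like Srsf3, links mRNA to the export receptor NXF1. It was at 9373, 10474 and 9015 normalized counts in the WT libraries against 6854, 7016 and 6040.4 in the hnRNPL-deficient ones. All 3 hnRNPL-deficient libraries lay well below the WT range, and the spread in each group was small beside the gap. The means were 9621 ± 760.4 and 6637 ± 523, 31.0% lower, with a log2 fold change of -0.54 (SE 0.10, 95% interval -0.77 to -0.30, limma adjusted p = 0.0147). Srsf7 was the only SR gene with an adjusted p under 0.1 in each of the 17 alternative fits, and its largest adjusted p, without WT library 2, was 0.0690.

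Srsf10 encodes an SR protein that turns from activator to general repressor of splicing when it loses its phosphates, as in heat shock and mitosis. Its counts were 18136.5, 13641 and 12545 in the WT libraries against 11587, 9452 and 9754 in the hnRNPL-deficient ones. Library 1 stood highest in both groups, and the WT spread was wider than that of Srsf7. The log2 fold change was -0.51 (SE 0.15, 95% interval -0.86 to -0.17, limma adjusted p = 0.0630), from means of 14774 ± 2963 and 10264 ± 1155. The result held at an adjusted p under 0.1 in 2 of the 6 fits that left out a library, and the largest limma adjusted p was 0.160, without hnRNPL-deficient library 2. Without WT library 3 or hnRNPL-deficient library 1 it passed the 1.5-fold threshold too (-0.62 and -0.60).

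Srsf3 encodes the smallest classical SR protein. It was at 33512, 28809 and 27407 normalized counts in the WT libraries against 25179, 21723.5 and 23799.9 in the hnRNPL-deficient ones. The groups were separated by a narrow gap, between WT library 3 and hnRNPL-deficient library 1. The means of 29909 ± 3198 and 23567.5 ± 1739.5 gave a log2 fold change of -0.34 (SE 0.11, 95% interval -0.60 to -0.09, limma adjusted p = 0.0892). The result rested on all 6 libraries, since leaving out any of them took the limma adjusted p to between 0.120 and 0.239.

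Srsf11, whose protein acts with other SR proteins on splice site choice, had the smallest difference. It was at 7103, 8073 and 7355 normalized counts in the WT libraries against 6123, 7154 and 7077 in the hnRNPL-deficient ones. The groups overlapped, with hnRNPL-deficient library 2 above WT library 1. The means were 7511 ± 503 and 6785 ± 574 (log2 fold change -0.15, 95% interval -0.38 to 0.09, limma adjusted p = 0.392). A fall by up to 0.38 on the log2 scale was therefore within the interval. The log2 fold change was -0.08 without hnRNPL-deficient library 1 and -0.09 without WT library 2.

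Among the proteins with a pair of RNA recognition motifs, Srsf1 is the best known, a shuttling splicing factor and oncoprotein that also acts in translation and in NMD. It was at 46979.9, 38868 and 34641 normalized counts in the WT libraries against 36444, 30071 and 27991 in the hnRNPL-deficient ones. The groups overlapped, as hnRNPL-deficient library 1 lay above WT library 3. The means were 40163 ± 6271 and 31502 ± 4404 (log2 fold change -0.35, SE 0.15, 95% interval -0.68 to -0.01), and the limma adjusted p of 0.165 did not pass. Without WT library 1 the log2 fold change was -0.23.

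Srsf6, which encodes another classical SR protein, was at 9639, 11765 and 10065 normalized counts in the WT libraries against 8656, 9479.6 and 6613 in the hnRNPL-deficient ones. The groups did not overlap, but WT library 1 and hnRNPL-deficient library 2 differed by less than the spread in either group. The log2 fold change was -0.36 (SE 0.15, limma adjusted p = 0.158), and -0.21 without hnRNPL-deficient library 3. Srsf4, which encodes the largest of the classical SR proteins, was at 3675, 3995 and 3751 normalized counts in the WT libraries against 3127, 3497 and 2867 in the hnRNPL-deficient ones, without overlap (log2 fold change -0.27, SE 0.11, limma adjusted p = 0.139). Srsf5, whose protein is close to those of Srsf4 and Srsf6, was at 8338, 9064 and 8804 normalized counts in the WT libraries against 7183.5, 8051 and 7471 in the hnRNPL-deficient ones, also without overlap (-0.21, SE 0.09, limma adjusted p = 0.183). Srsf9, the closest relative of Srsf1, was at 3553, 4103 and 3738 normalized counts in the WT libraries against 3316, 3617 and 2722 in the hnRNPL-deficient ones (-0.25, SE 0.13, limma adjusted p = 0.248). For Srsf9 hnRNPL-deficient library 2 lay above WT library 1, so the groups overlapped, and without hnRNPL-deficient library 3 its log2 fold change was -0.13.

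In all, 7 of the 10 SR genes were lower without overlap between the groups, beside 16.3% of all genes tested and 27.9% of the abundant ones. With 3 libraries against 3, the two-sided exact permutation test cannot give a p below 0.1, which is what it gave for these 7 genes, and it gave 0.2 for Srsf1, Srsf9 and Srsf11. At an unadjusted limma p under 0.05, 7 of the 10 were lower, beside 12.9% of all genes tested.

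**Figure D2:**
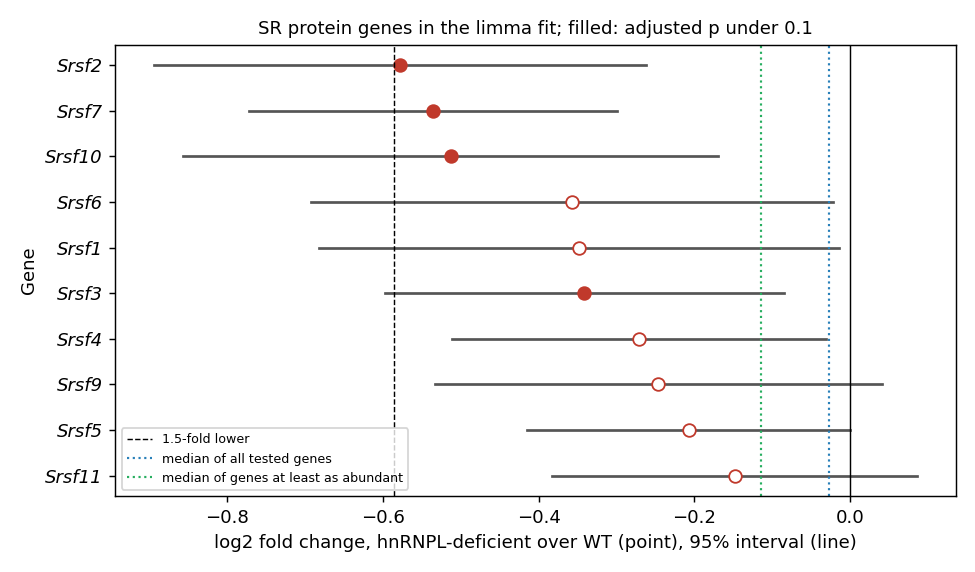
Log2 fold change of each SR protein gene, hnRNPL-deficient over WT, from the limma fit (points) with its 95% interval (lines). Filled points have an adjusted p under 0.1, and all 10 points lie left of the median of all genes tested (-0.03) and of the median of genes at least as abundant as Srsf4 (-0.11).

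Some SR genes have near-identical copies elsewhere in the genome, so reads may have been lost or split in counting. Distinct 50-base stretches were taken from the annotated protein-coding transcripts of each SR gene. The shares that also occurred, on the same strand, in transcripts of other genes were 31.5% for Srsf3 and 23.6% for Srsf5. They were 11.4% for Srsf10 and 0.787% for Srsf7. The other 6 SR genes shared none. The main copies of Srsf3 were Gm12355 (2620 ± 791 normalized counts against 1726 ± 349, WT first) and Gm9761 (4599.8 ± 1492 and 3291 ± 898). Neither passed (limma adjusted p = 0.126 and 0.285). The copy of Srsf5, Gm12966, was at 1698 ± 371 and 1393 ± 325 (limma adjusted p = 0.402), and those of Srsf10, Gm5446 and Gm9134, at 305 ± 77.8 and 255 ± 36.4 and at 126 ± 22.4 and 79.8 ± 8.02 (limma adjusted p = 0.534 and 0.109). How far these shared stretches affected the values of Srsf3, Srsf5 and Srsf10 was not tested.

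Levels of different SR genes were compared per kilobase of merged exons, in CPM per kilobase. In WT cells Srsf2 was highest at 154 ± 14.4, followed by Srsf1 at 117 ± 13.6, Srsf3 at 63.2 ± 4.29 and Srsf7 at 45.4 ± 3.68. Srsf9 (38.5 ± 3.62), Srsf5 (36.7 ± 2.7), Srsf6 (36.5 ± 4.42) and Srsf10 (35.1 ± 5.64) came next, and neighbours in this run could not be ordered because their ranges overlapped. Srsf4 at 17.9 ± 1.17 and Srsf11 at 14.9 ± 1.28 were lowest. In hnRNPL-deficient cells Srsf2 was at 108 ± 14.4 and Srsf1 at 95.7 ± 10.7, with overlapping ranges, and the range of Srsf7 (32.5 ± 1.64) overlapped those of Srsf9 and Srsf5. The order depends on the length used. With the length of the transcript that has the longest coding sequence, Srsf1 (554 ± 64.2 in WT) stood above Srsf2 (240 ± 22.5). That transcript was 1209 bases long for Srsf1, against 5710 bases of merged exons.

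Summed over the 10 genes, the level per kilobase was 559, 584 and 536 CPM in the WT libraries against 456, 452 and 408 in the hnRNPL-deficient ones. The sums did not overlap, and the hnRNPL-deficient mean was 78.4% of the WT mean. It was 79.9% with the length of the transcript that has the longest coding sequence. The share of each gene in this pool overlapped between the groups for all but Srsf7. Srsf2 made up 25.8%, 29.2% and 27.5% of it in the WT libraries against 24.5%, 26.4% and 22.4% in the others, which overlapped. The share of Srsf7 was 7.59%, 8.48% and 8.23% in WT and 7.16%, 7.52% and 7.52% in hnRNPL-deficient cells and did not overlap, but on shares of reads in place of levels per kilobase it overlapped too. Srsf11 had a share of 2.66% ± 0.22 against 3.21% ± 0.51, WT first.

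The libraries of 1 group did not vary in the same way for all SR genes. Srsf1, Srsf3 and Srsf10 were highest in library 1 of both groups, and the other 7 were highest in library 2 of both groups. Deviations of log2 values from the group means ran together for Srsf1, Srsf3 and Srsf10 (Pearson r 0.83 to 0.96 over the 6 libraries) and for Srsf2, Srsf4, Srsf6, Srsf7 and Srsf9 (0.84 to 0.995). Between Srsf3 and Srsf5 r was -0.87. These correlations share libraries and their scaling and are given as a description. Library 3 of the hnRNPL-deficient group, the shallowest, was the lowest of that group for Srsf1, Srsf2, Srsf4, Srsf6, Srsf7 and Srsf9, with deviations from the group mean of -0.30 for Srsf6 and -0.28 for Srsf2 on the log2 scale. Without it, the median log2 fold change of the 10 genes was -0.24.

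**Figure D3:**
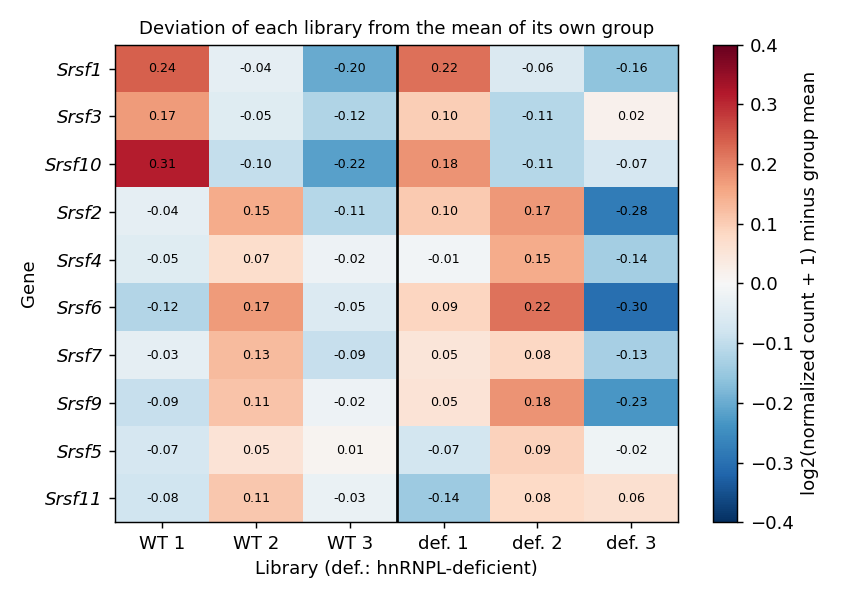
Deviation of each library from the mean of its own group for each SR protein gene, in log2(normalized count + 1), with the 3 WT libraries left of the black line and the 3 hnRNPL-deficient ones (def.) right of it. Srsf1, Srsf3 and Srsf10 (top rows) are highest in library 1 of both groups, and the other genes in library 2.

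The promoters of the SR genes were searched for 4 short motifs in the window from 250 bases before to 50 bases after each RefSeq start (GRCm38.p6), on both strands. All 10 genes matched a RefSeq window. The E2F-type motif TTTGGCGC or TTTCCCGC was found in Srsf10 and Srsf1, 2 of 10 genes, and in 1.8% of 27025 genes. CCAAT was found in 4 of 10 (Srsf1, Srsf2, Srsf3 and Srsf10) against 41.1% of genes, TATAAA in 2 of 10 (Srsf2 and Srsf3) against 15.7%, and CACGTG in none of the 10 against 8.09%. The matched sites of the E2F-type motif are shown because Srsf10 held 3 of them, with the motif in capitals, as GCGGGAAA where it lies on the other strand.
Srsf10 (chr4:135855867-135855896, plus strand, matches starting at -198 and -188): ggccggGCGGGAAAggGCGGGAAAgcgcag
Srsf10 (chr4:135855998-135856027, plus strand, match starting at -62): ccagagatctcGCGGGAAAaagccgttgtc
Srsf1 (chr11:88047295-88047324, plus strand, match starting at -67): cccgcggcgccTTTCCCGCcaaaggccgtt
A match is a description of the letters, and binding was not measured here.

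Of 30 listed SR-related splicing proteins, which carry similar tails or work at the same splice sites, 28 were tested, 18 were lower and 10 higher on average, and the median log2 fold change was -0.17. These shares stand beside 68.2% of abundant genes that were lower. No gene of this list was called in either direction, 5 of 28 fell at an adjusted p under 0.1 without the fold threshold (15.1% of abundant genes did), and none rose. Those 5, named after their values were seen, were Luc7l, Pnn, Snrnp70, Bclaf1 and U2af1, with log2 fold changes between -0.42 and -0.30. Of the 17 alternative fits, an adjusted p under 0.1 was kept in 13 for Pnn, 9 for Luc7l, 7 for Snrnp70, 6 for Bclaf1 and 5 for U2af1. Snrnp70, the U1 particle protein that SR proteins contact at the 5′ splice site, was at 10402 ± 288 and 8367 ± 765 normalized counts in the WT and hnRNPL-deficient groups (limma adjusted p = 0.0748). U2af1, the small U2AF subunit that reads the 3′ splice site, was at 9784 ± 1895 and 7298 ± 372 (limma adjusted p = 0.0959), and its log2 fold change went from -0.41 to -0.25 without WT library 1.

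Of the 17 listed kinases, phosphatases and transport factors that act on SR proteins, all were tested and none was called. Srpk1, the kinase that phosphorylates SR proteins in the cytoplasm before nuclear import and the only gene of the list with an adjusted p under 0.1, was at 11481, 11570.3 and 11117 normalized counts in the WT libraries against 8613, 8955 and 8055 in the hnRNPL-deficient ones. The groups were far apart for their spread. Its means were 11389 ± 240.1 and 8541 ± 454 (log2 fold change -0.42, SE 0.09, limma adjusted p = 0.0205), and its adjusted p was under 0.1 in each of the 17 alternative fits. Srpk3, a related kinase named after its values were seen, had the largest fold difference of the list at a far lower level (398 ± 52.1 and 273 ± 72.5, log2 fold change -0.57, limma adjusted p = 0.133). The nuclear kinases of the CLK family had log2 fold changes of 0.22 (Clk1), 0.12 (Clk2), -0.16 (Clk3) and 0.18 (Clk4), none of which passed. The median of the list was -0.07.

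The 15 factors of NMD, the pathway that removes transcripts with a poison exon, were split, with 8 higher and 7 lower on average and a median of 0.01. None was called and none had an adjusted p under 0.1. Upf1, the central helicase of the pathway, had a log2 fold change of 0.01 (limma adjusted p = 0.975). The smallest limma p of the list was that of Eif4a3, the RNA-binding core of the exon junction complex (-0.30, adjusted p = 0.121).

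**Figure D4:**
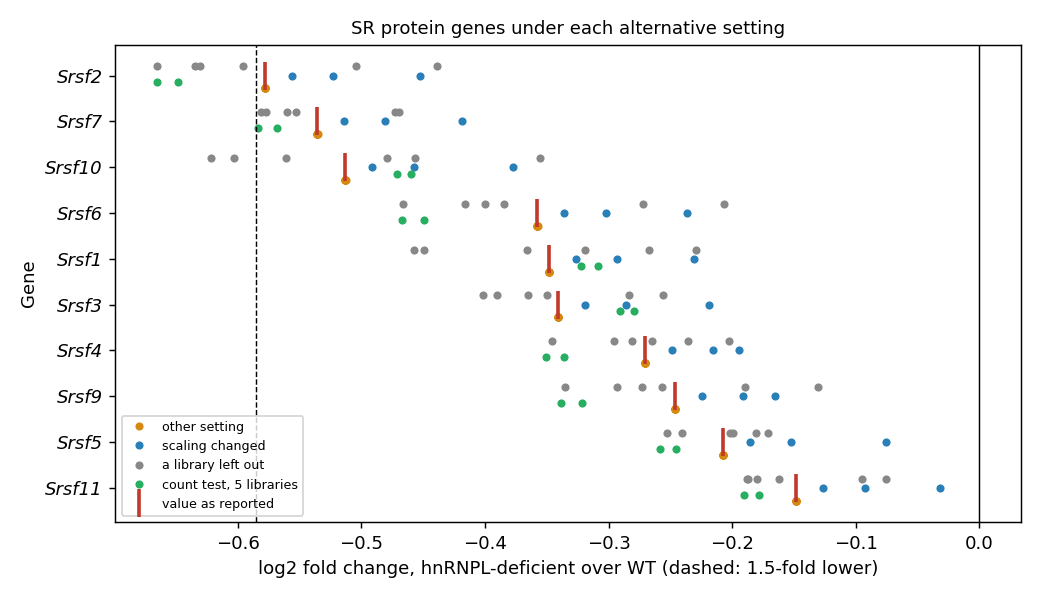
Log2 fold change of each SR protein gene, hnRNPL-deficient over WT, as reported (red bar) and under each alternative: a library left out (grey), another scaling (blue), a count test on 5 libraries (green) and other settings (orange), with 1.5-fold lower dashed. All points of the 10 genes lie below 0, and only points of Srsf2 and Srsf10 lie left of the dashed line.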

How the data were processed

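Libraries were made from poly(A) RNA with the KAPA RNA HyperPrep kit and sequenced as 100-base pairs. Per the study's methods and the submitters' processing notes, the authors trimmed reads with fastp 0.23.1, aligned them to mm10 with STAR 2.7.9a, counted them by strand with featureCounts on GENCODE vM23 genes and divided the counts by DESeq2 1.38.2 size factors. The deposited signal is this normalized count, 1 column per library. Deposited columns of the authors' log2 fold changes, test score and p-values hold their own comparison and were not used, nor was their mean column of normalized counts (signal). How featureCounts treated reads with several matches is not given in the sources used here.

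Normalized counts were tested with limma 3.58.1 (R 4.3.3), with a mean-variance trend, on log2(value + 1) in 17640 genes with a mean of at least 10, two-sided and adjusted by Benjamini-Hochberg over all of them. A fold change on this scale slightly understates that of low genes. As in the study, a gene was called at an adjusted p under 0.1 and at least 1.5-fold. Intervals are 95%. All deposited values were whole multiples of the smallest value of their library (100% within 0.01), which gave the gene reads per library (40395186 to 75180749). As alternatives, edgeR 4.0.16 (quasi-likelihood) and DESeq2 1.42.0 were run on these reads in 5 libraries. Library 2 of the hnRNPL-deficient group was left out of them, as an automatic check of the recovery did not accept it, although its values were whole multiples too. The other alternatives were another pseudocount, filter, scaling or variance model, a replicate block, other call rules and leaving out each library.

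The SR genes and all gene lists were chosen with earlier results of these data known. Genes named from the related lists were to be those called, and as none was, those named here were chosen after their values were seen. Opposite-strand neighbours and copies were named for shared exon sequence. Gene models, transcripts and shared 50-base stretches came from GENCODE vM21 (GRCm38), and promoter windows from RefSeq (GRCm38.p6). Levels per kilobase used CPM from gene reads and the length of merged exons.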

Additional observations from a re-analysis of the deposited data

How the results depend on the processing

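All 10 SR genes had a log2 fold change below 0 in each of the 17 alternative fits, and the range of each over these fits lay below 0. With scaling to equal totals, TMM scaling and quantile normalization the median of the 10 was -0.29, -0.32 and -0.22. In these fits 4, 4 and 3 of them had an adjusted p under 0.1, beside 7.14%, 7.06% and 8.02% of all genes tested on the lower side. With that share in brackets, the count was 4 as reported (7.97%), 2 with no mean-variance trend (5.84%), 2 with edgeR (6.02%) and 3 with DESeq2 (6.75%). It was 1 to 3 with a library left out (3.79% to 5.99%), and 1 without WT 2 (3.79%). The number called lower, 0 as reported, was 1 with edgeR and 1 with DESeq2 on 5 libraries (Srsf2 in both, -0.67 and -0.65), 4 at an adjusted p under 0.1 at any fold, 7 at an unadjusted p under 0.05, and 0 to 2 with a library left out. Srsf2 was then called at -0.60 (without WT 1), -0.63 (WT 3), -0.63 (hnRNPL-deficient 1) and -0.67 (hnRNPL-deficient 2), and Srsf10 at -0.62 (WT 3) and -0.60 (hnRNPL-deficient 1). No SR gene was called higher under any setting, also at an unadjusted p under 0.05.

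Over all genes, 1284 were called higher and 719 lower. Leaving out a library gave 830 to 1111 higher and 478 to 696 lower, with both minima without WT 3. An adjusted p under 0.05 with 2-fold gave 610 and 216, an adjusted p under 0.1 at any fold 1406 lower, and an unadjusted p under 0.05 2547 and 2283. Of the SR-related proteins 5 were lower at any fold and 7 at an unadjusted p. Of the kinases and related factors 1, Srpk3, was called lower with quantile normalization (-0.67), without hnRNPL-deficient 2 (-0.77), with edgeR (-0.78) and with DESeq2 (-0.77), 1 (Srpk1) at any fold and 3 at an unadjusted p. Of the NMD factors 1 was lower at an unadjusted p.

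Deviations of same-numbered libraries of the groups correlated at 0.43, 0.32 and 0.07 for numbers 1, 2 and 3, so hardly at all for number 3. In all, 2 of 3 WT and 3 of 3 hnRNPL-deficient libraries correlated best with their own number. The sample labels name no pairs, and the fit as reported did not take the numbers as pairs. Any variation shared by library number therefore stayed in its errors. With a replicate block no SR gene was called (0), since the fold changes stay the same, but 9 of 10 had an adjusted p under 0.1, as did 16.5% of all genes on the lower side, and 1755 and 1018 genes were called higher and lower. Depth limits little here, as the SR genes had 1986 to 45298 reads per library. With 3 libraries in each group, the errors also depended on the model, as the SE of Srsf1 was 0.15 as reported and 0.07 with the replicate block. The cause of the differences between settings was not tested.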
